A study of Mus musculus with 5 samples.

Results

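The comparison described here is that of early mesoderm with undifferentiated stem cells, read on the 1 array of the study that carried both. Mouse stem cells were differentiated as embryoid bodies, aggregates used to follow heart development in culture. The Bra population was sorted at day 4.5 as positive for Brachyury (Bra, gene T) and labelled with Cy5, and the Rex1 population was sorted at day 0 as positive for Rex1 (gene Zfp42) and labelled with Cy3. The array is 1 of 5 in the series, and all of its 28845 probes, which stand for 24801 genes and transcripts, were described. The remaining arrays paired Flk1-positive cells at day 4.5 with Rex1, Nkx2.5-positive cells at day 7.5 with Rex1, Nkx2.5 with Bra, and Nkx2.5 with Flk1. The labels state neither the reporters used for the sort nor the stem cell line, nor how many cells were pooled. Each pair was hybridised once with no dye exchange, so the values carry no replicate error, and the populations were not compared by a test.

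The primitive streak is the region of the early embryo where cells of the epiblast leave an epithelium and become mesoderm or endoderm. Brachyury, a T-box transcription factor, marks the cells there, and Wnt, Nodal, BMP and FGF signals start and sustain the process. Rex1 is a zinc finger protein of undifferentiated stem cells, which are held in that state by a network around Oct4 (gene Pou5f1), Sox2 and Nanog.

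Values are log2 ratios of Bra over Rex1 after loess normalisation within each array. The first reading of a gene is that of the Bra/Rex1 array, and the second is Nkx2.5 over Rex1 minus Nkx2.5 over Bra, which shares no array with the first. A gene was called higher or lower where both readings reached 1 in size, a fold of 2, and the brighter population lay well above background, that is above percentile 95 of 96 negative control spots. Over all genes the readings differed by an SD of 0.391, which gives 0.226 for 1 array if errors were equal and independent. The net signals quoted below are on the scanner's scale, where the median probe had 4237 in Bra and 2561 in Rex1, so equal expression does not mean equal net signals. The background thresholds were 1368 in Bra and 1424 in Rex1.

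By this rule 286 of the 24801 genes, 1.15%, were higher in Bra, and 55, 0.222%, were lower. The array alone passed 727 genes as higher, 2.93%, and 132 as lower, 0.532%. Of the 19379 genes above background in both populations, 42 were higher by the rule, 0.217%, and 53 lower, 0.273%. The higher genes were concentrated in one area of the slide. Spots are laid out in 12 rows of blocks, and 262 of the 286 higher genes, 91.6%, lay in rows 11 and 12, which hold 16.3% of all genes. Of the lower genes 4 of 55 lay there. In those rows the median log2 ratio of all probes was 0.35 in the first reading and 0.16 in the second, against -0.04 and -0.02 in rows 1 to 10. The median net signal there was 3956.5 in Bra and 1806.5 in Rex1, against 4286.5 in Bra and 2698.5 in Rex1 in rows 1 to 10, and 90.4% of probes were above background in Bra and 60.4% in Rex1, against 92.5% and 81.1% elsewhere. The displacement was present in both readings. The median was also displaced upward on the other arrays, to 0.39 for Flk1 over Rex1, 0.31 for Nkx2.5 over Rex1, 0.15 for Nkx2.5 over Bra and 0.20 for Nkx2.5 over Flk1. What produced the displacement was not tested.

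**Figure D1:**
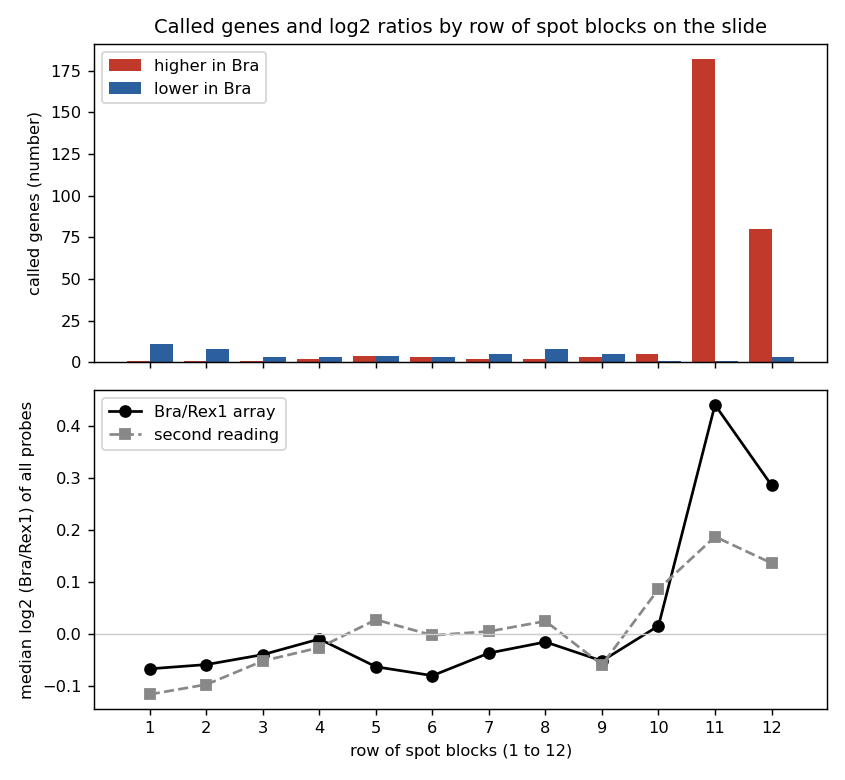
Called genes (upper panel, number) and median log2 ratio of Bra over Rex1 of all probes (lower panel, first reading as circles, second reading as squares) in each of the 12 rows of spot blocks. Rows 11 and 12 held 182 and 80 of the higher genes, and both medians stood above those of rows 1 to 10.

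Without rows 11 and 12, 24 of 20761 genes were higher in Bra, 0.116%, and 51 were lower, 0.246%. With loess fitted within each block (print-tip loess), 37 of 24801 were higher, 0.149%, and 63 were lower, 0.254%. Of these 63 lower genes 20 lay in rows 11 and 12, against 4 of the 55 called by the loess of the whole array. The number of lower genes in those rows thus also depended on the fit. Of the 286 higher genes 34 were also called with print-tip loess, and of the 55 lower genes 41 were. The count of 286 therefore rests on the area, and the genes of rows 11 and 12 are given below with their print-tip values and are not read as higher unless both fits called them. The boundary between rows 10 and 11 was set after the values were seen.

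The RefSeq promoters of Sp5, T and Zfp42 are shown because they belong to the markers of the comparison. Each is the stretch of 250 bases before the gene's RefSeq start, on build GRCm38.p6. Capitals mark a match to 1 of 3 motifs searched on both strands: CTTTGAT, bound by TCF and LEF proteins, the partners of beta-catenin in Wnt signalling; AGGTGTGA, a site of T-box proteins; and the octamer ATGCAAAT, bound by Oct4.
Sp5 (chr2:70474673-70474922, plus strand): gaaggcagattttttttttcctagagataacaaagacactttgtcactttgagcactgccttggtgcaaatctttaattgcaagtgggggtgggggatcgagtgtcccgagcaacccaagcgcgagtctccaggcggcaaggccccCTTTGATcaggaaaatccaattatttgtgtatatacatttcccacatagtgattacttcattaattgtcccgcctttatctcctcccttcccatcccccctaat
T (chr17:8434173-8434422, plus strand): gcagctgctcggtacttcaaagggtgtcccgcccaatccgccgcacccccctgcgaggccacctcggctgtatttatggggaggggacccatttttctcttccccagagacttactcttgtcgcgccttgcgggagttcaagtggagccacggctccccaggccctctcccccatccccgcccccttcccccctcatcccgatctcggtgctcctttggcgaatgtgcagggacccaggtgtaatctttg
Zfp42 (chr8:43307010-43307259, minus strand): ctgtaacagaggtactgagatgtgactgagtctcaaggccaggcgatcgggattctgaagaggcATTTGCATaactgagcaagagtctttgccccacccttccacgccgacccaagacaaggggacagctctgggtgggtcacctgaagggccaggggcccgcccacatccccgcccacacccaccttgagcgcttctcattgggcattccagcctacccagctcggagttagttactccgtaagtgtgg
The capitals in the Sp5 promoter are the TCF/LEF letters, at positions -104 to -98 from the start. Those in the Zfp42 promoter are the octamer on the opposite strand, at positions -186 to -179 from the start. None of the 3 motifs is in the window of T. The octamer was in the promoters of 4 of the 26 lower genes that could be matched, namely Mageb16, Tspan8, Zfp120 and Zfp42, and in 1.46% of all 11393 matched promoters. The TCF/LEF letters were in 3 of 191 higher genes and in 2.86% of all promoters, and the T-box letters were in 2 of 191 and in 0.948%. Most of the 191 lie in rows 11 and 12. A match is a description of these letters and was not tested.

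The sort markers agreed only in part with the labels. T had net signals of 13477 in Bra and 4727 in Rex1, with log2 ratios of 1.07 and 0.73, so its second reading missed the rule. A route through the Flk1 arrays (Flk1 over Rex1 plus Nkx2.5 over Flk1 minus Nkx2.5 over Bra) gave 1.08. Zfp42 was lower in Bra, with net signals of 6754.5 in Bra and 13710 in Rex1 and ratios of -1.74, -1.19 and -1.76 along the 3 routes. With each array centred on the surrounding spots its readings were -1.57 and -0.98, which ended the call. Kdr, the Flk1 gene, had ratios of -0.14 and 0.01, and 0.05 along the route through the Flk1 arrays. Nkx2-5 had ratios of -0.23 and -0.22, but 0.55 along that route. In bulk RNA, fewer cells of a type and less RNA per cell cannot be told apart.

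**Figure D2:**
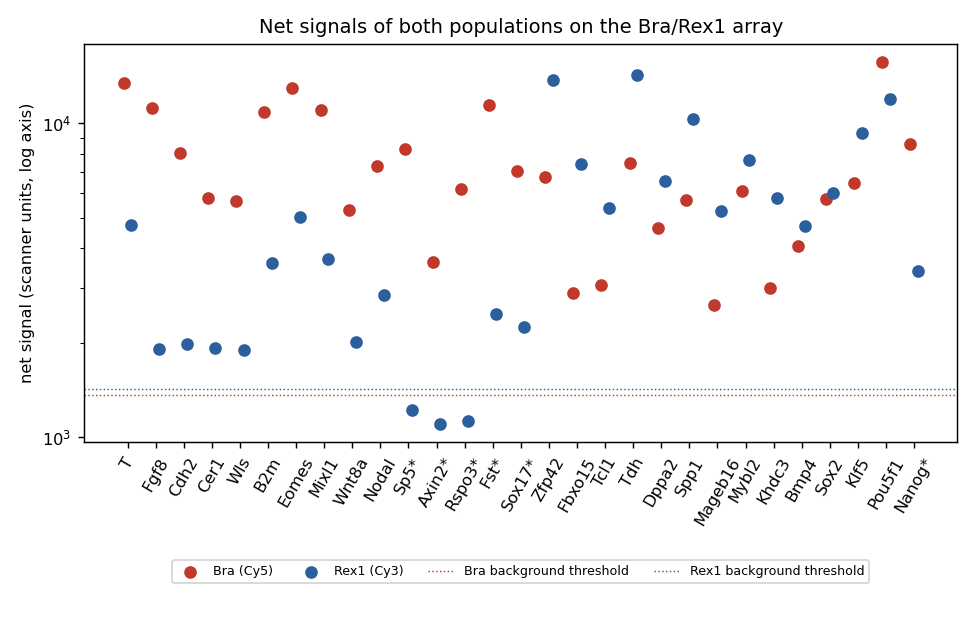
Net signal (scanner units, log axis) of each gene in Bra (red) and Rex1 (blue) on the array that carried both, 1 spot each; dotted lines are the background thresholds of each channel and an asterisk marks a spot in block rows 11 or 12. T stands at 13477 in Bra and 4727 in Rex1, and Zfp42 at 6754.5 in Bra and 13710 in Rex1.

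Among signals of the streak, Fgf8, a growth factor needed for cells to move away from the streak, was higher in Bra. Its probe had net signals of 11178 in Bra and 1909 in Rex1 and ratios of 2.36, 1.72 and 2.36. It lies in row 6 and had print-tip ratios of 2.47 and 1.76. Rex1 was above background on 1 of 3 arrays, so the size of the ratio is uncertain, and a dimmer probe of the same gene had ratios of 0.66 and 0.64. Of the 19 streak surface and signal genes measured, 3 were called higher and 0 lower, where 1.15% of all genes were higher, but only Fgf8 of these lies in rows 1 to 10, where 1 of 17 passed and 0.116% of all genes did. Fgf8 also belongs to the markers of the comparison. All lists here and below were chosen with earlier results of these data known, so their counts are no independent evidence of direction. The streak surface and signal list had medians of 0.23 and 0.19 over its members in rows 1 to 10, where all genes had -0.03 and -0.01.

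The other streak ligands had smaller ratios. Nodal, the TGF-beta ligand that induces mesoderm and endoderm, had net signals of 7291 in Bra and 2839 in Rex1. Its ratios were 0.86 and 0.65, and 0.27 along the third route. Wnt8a had ratios of 0.97 and 0.94, but 0.14 along the third route. Cyp26a1, which degrades retinoic acid, had ratios of 0.78 and 0.98, and 0.46 along the third route. Wnt3 had 0.20 and 0.15. None of these passed the rule.

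Rspo3, a secreted enhancer of Wnt signalling, and Fst, follistatin, an inhibitor of activin, were called but lie in rows 11 and 12. Rspo3 had ratios of 2.35 and 1.31, and print-tip ratios of 1.90 and 0.82. Fst had ratios of 1.89 and 1.11, and print-tip ratios of 1.71 and 0.89. Both were thus called by the loess of the whole array and not by print-tip loess, whose second readings fell short of 1. With each array centred on the surrounding spots Rspo3 had 2.07 and 1.15, which kept the call, and Fst had 1.94 and 0.99, which did not.

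Of 20 transcription factors of the streak, 1 was called higher, 0 were lower and 19 were neither, where 1.15% of all genes were higher and 0.222% lower, so the count says little about the list. That 1 was Sp5, a zinc finger factor and Wnt target, with net signals of 8310 in Bra and 1223 in Rex1. Rex1 was below the background threshold on all 3 of its arrays. Its ratios were 2.73 and 2.44 and its print-tip ratios 2.03 and 2.04; with Rex1 dim throughout, these do not fix the size of the difference. It lies in row 11, and its spot was marked Bad on the array of Nkx2.5 and Rex1, so leaving out such spots ends the call. Eomes, a T-box factor, had net signals of 12928 in Bra and 5024.5 in Rex1 and ratios of 0.91 and 0.85. With centring on the surrounding spots it had 1.15 and 1.07, past the rule. A dimmer Eomes probe had 0.82 and 0.14. Mixl1, a homeobox factor, had ratios of 1.13 and 0.70. Lhx1 had 0.91 and 0.89, and lies in row 12. Mesp1, a factor of nascent mesoderm, had 0.39 and 0.37, Tbx6 had -0.11 and 0.41, and Msgn1 had 0.20 and -0.03. Along the third route Eomes had 0.60, Mixl1 0.53, Lhx1 0.85, Mesp1 -0.15 and Msgn1 -0.17. In rows 1 to 10, 0 of 18 factors passed, near the 0.116% of all genes there, and their medians were 0.16 and 0.23.

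**Figure D3:**
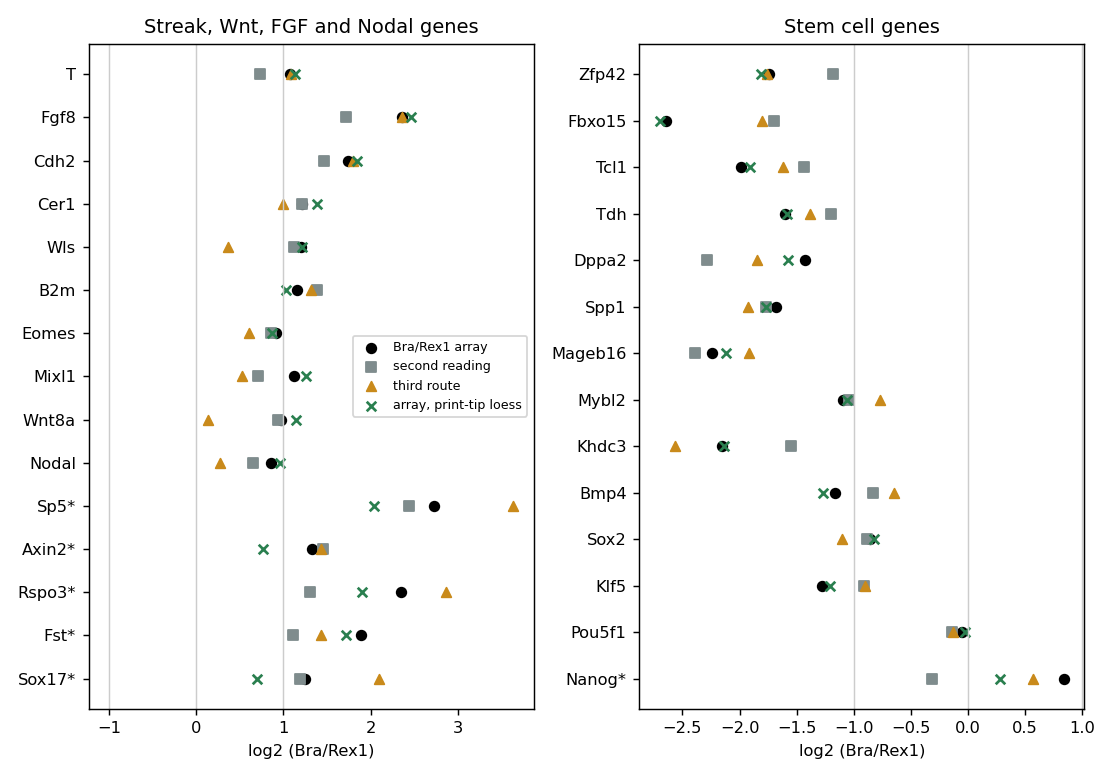
Log2 ratio of Bra over Rex1 for streak and signalling genes (left) and stem cell genes (right): first reading (circles), second reading (squares), the third route (triangles) and first reading with print-tip loess (crosses), 1 value each; an asterisk marks block rows 11 and 12. Fgf8, Cdh2, B2m, Sp5, Rspo3 and Fst lie above 1 by all 4, and Sp5, Axin2, Rspo3, Fst and Sox17 have lower print-tip values than first readings. The second reading with print-tip loess is not shown.

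In the Wnt pathway Wls, the carrier that brings Wnt proteins to the cell surface, was named by the rank rule and lies in row 4. It had net signals of 5654.5 in Bra and 1904 in Rex1, ratios of 1.20 and 1.12, and 0.37 along the third route. Lef1, a partner of beta-catenin, had ratios of 1.01 and 1.23, but 0.20 along the third route, and Rex1 was below background on all 3 arrays, which gives an estimated bound of at least 1.85-fold. Its spot too was marked Bad on the array of Nkx2.5 and Rex1, so leaving out such spots ends the call. Of 26 Wnt antagonists and targets 3 were called higher, Sp5, Axin2 and Lef1, of which Lef1 lies in rows 1 to 10, where 1 of 19 passed. Over all genes 1.15% were higher, and 0.116% in rows 1 to 10. Axin2, a feedback inhibitor, had ratios of 1.33 and 1.45, and print-tip ratios of 0.77 and 0.80, with Rex1 below background on all 3 arrays. With centring on the surrounding spots Axin2 had 1.06 and 1.16, which kept the call. Dkk1, a secreted inhibitor, had ratios of 1.01 and 0.82, and print-tip ratios of 0.38 and 0.54.

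Of 30 Wnt ligands and receptors 1 was called, Rspo3, and 0 of 24 in rows 1 to 10, both near the shares of 1.15% and 0.116% over all genes. Rspo1 in row 12 had ratios of 2.20 and 0.73, and print-tip ratios of 0.87 and 0.12. The receptor gene Fzd8 in row 11 had 1.54 and 0.86, and print-tip ratios of 0.94 and 0.73. The co-receptor gene Lrp6 had 0.06 in the first reading, 1.33 in the second and 0.13 along the third route, which leaves the second reading alone.

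The FGF, Nodal and BMP lists held 1 call each, where 1.15% of all genes were higher. Of 23 FGF ligands, receptors and feedback genes only Fgf8 passed. The feedback inhibitor genes Dusp6 and Il17rd had ratios of 0.88 and 0.14 and of 0.86 and 0.95. The 22 Nodal and activin genes included 1 call, Fst. Gdf3, a ligand of undifferentiated cells, had -1.55 and -0.65. Of 24 BMP pathway genes the receptor gene Acvr1 in row 11 was called, at 2.55 and 1.55, with print-tip ratios of 1.60 and 0.95 and a net Rex1 signal of 0. With centring on the surrounding spots Acvr1 had 1.77 and 1.19, which kept the call. Its spot was marked Bad on 2 of the 3 arrays behind both readings, the Bra/Rex1 array among them, so leaving out such spots ends the call. Bmp4 had net signals of 4061 in Bra and 4700 in Rex1 and ratios of -1.17 and -0.83, which is the largest negative value of that list in the first reading. The BMP target genes Id1 and Id3 had 0.33 and 0.28 and 0.63 and 0.75.

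Cdh2, N-cadherin, the adhesion protein gained as cells leave the epithelium, was higher in Bra. It lies in row 6, had net signals of 8044.5 in Bra and 1983.5 in Rex1, and had ratios of 1.73, 1.46 and 1.80. Rex1 was above background on all 3 arrays. It was the 1 gene called of 28 in the cadherin and mesenchyme list, and of 25 in rows 1 to 10, where 0.116% of all genes were higher. Cdh1, E-cadherin, the epithelial counterpart, had 0.35 and 0.20, and Epcam, also epithelial, had 0.22 and 0.32. Vim, an intermediate filament gene of mesenchyme, had 0.30 and 0.41, and Snai1, a repressor of E-cadherin, had 0.12 and 0.17. Mmp2, a matrix protease, had 0.30, 1.47 and 1.68, with Rex1 above background on 1 of 3 arrays.

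Cer1, a secreted antagonist of Nodal, BMP and Wnt signals made in anterior endoderm, was higher in Bra at 1.21 and 1.21, with net signals of 5772.5 in Bra and 1928.5 in Rex1. Of 16 definitive endoderm genes 2 were called, Cer1 in row 5 and Sox17 in row 11, where 1.15% of all genes were higher and 0.116% in rows 1 to 10. Sox17, an endoderm transcription factor, had ratios of 1.24 and 1.19, and print-tip ratios of 0.70 and 0.88. Foxa2 had 0.67 and 0.33, Gata6 had 0.16 and 0.21, and Cxcr4 had -0.06 and 0.16. The share of endoderm cells in the Bra population was not tested.

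**Figure D4:**
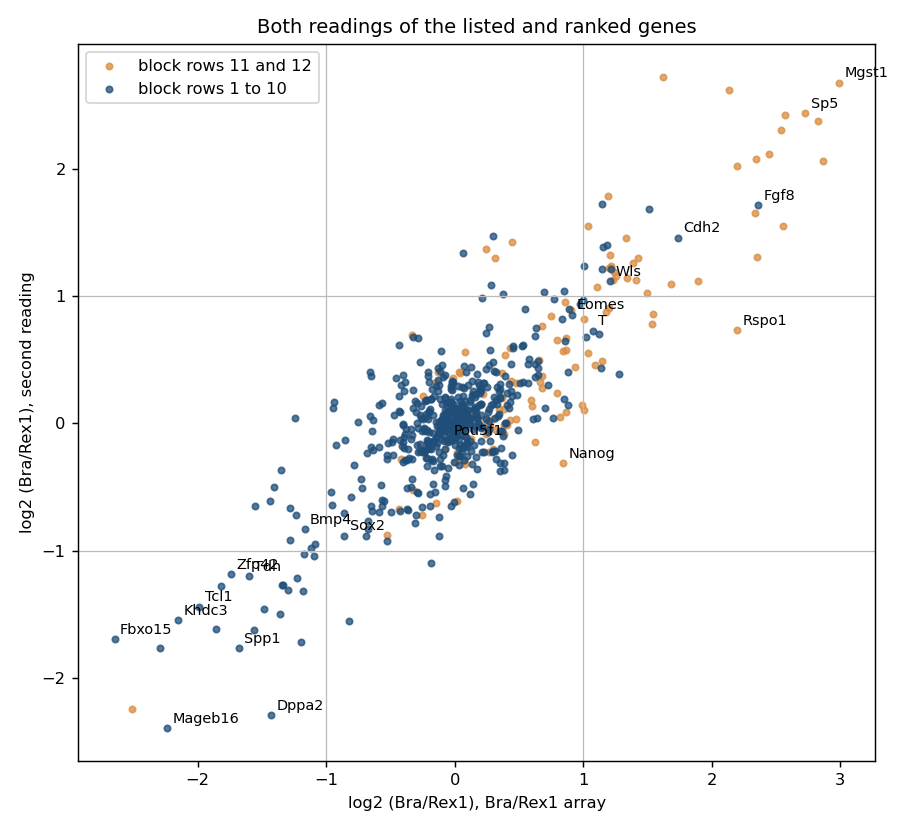
First reading against second reading (log2 ratio of Bra over Rex1) of the listed and ranked genes, 1 point a gene, with block rows 11 and 12 in orange and rows 1 to 10 in blue; lines mark a fold of 2. Most points past 2 in both readings are orange, while the genes called lower by the loess of the whole array are almost all blue.

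The genes of undifferentiated cells did not move as one group. Of 23 stem cell marker genes 7 were lower in Bra, 0 were higher and 16 were neither, where 0.222% of all genes were lower. All 7 lie in rows 1 to 10 and all were also called with print-tip loess. The list's medians in those rows were -1.18 and -0.63. Since the list was chosen with earlier results of these data known, its count is no independent evidence of direction.

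Fbxo15, an F-box gene used as a reporter of the undifferentiated state, had net signals of 2882 in Bra and 7443.5 in Rex1 and ratios of -2.65 and -1.69. Mageb16 had net signals of 2639 in Bra and 5263.5 in Rex1 and ratios of -2.24 and -2.39. Rex2 had ratios of -2.29 and -1.76. These were the lowest of the list in the first reading. Tcl1, a cofactor of the kinase AKT, had net signals of 3064 in Bra and 5374 in Rex1 and ratios of -1.99 and -1.44. Spp1, the secreted phosphoprotein osteopontin, had net signals of 5690 in Bra and 10322.5 in Rex1 and ratios of -1.68 and -1.77. Tdh, threonine dehydrogenase, on which mouse stem cells depend for one-carbon metabolism, had net signals of 7455 in Bra and 14195.5 in Rex1 and ratios of -1.60 and -1.20. Dppa2, a chromatin protein of undifferentiated cells, had net signals of 4640.5 in Bra and 6562.5 in Rex1 and ratios of -1.43 and -2.29. Along the third route these 7 genes lay between -2.17 and -1.39.

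Of 13 factors of the naive state 2 were lower, Zfp42 and Mybl2, a cell cycle transcription factor with ratios of -1.10 and -1.04, where 0.222% of all genes were lower. With print-tip loess 3 were lower, and with centring on the surrounding spots 1, Mybl2. Zfp42 is the gene by which the Rex1 population was sorted, so these counts are no independent evidence about the naive factors. Klf5 had -1.28 and -0.91, but -1.21 and -1.02 with print-tip loess, which called it. Nr0b1 had -1.24 and -0.72, and Gbx2 had -1.40 and -0.50, both short of the rule in the second reading. Esrrb had -0.22 and 0.05, and Klf4 had -0.15 and -0.17.

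Of the 10 core factors 0 were called. Pou5f1 had net signals of 15655 in Bra and 11981 in Rex1 and ratios of -0.05 and -0.14. Sox2 had 5730.5 in Bra and 6014 in Rex1 and ratios of -0.86 and -0.88. Nanog had 8613 in Bra and 3375 in Rex1 and readings of opposite sign, 0.84 and -0.31, and it lies in row 12; with print-tip loess it had 0.28 and -0.94. No direction is given for Nanog.

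**Figure D5:**
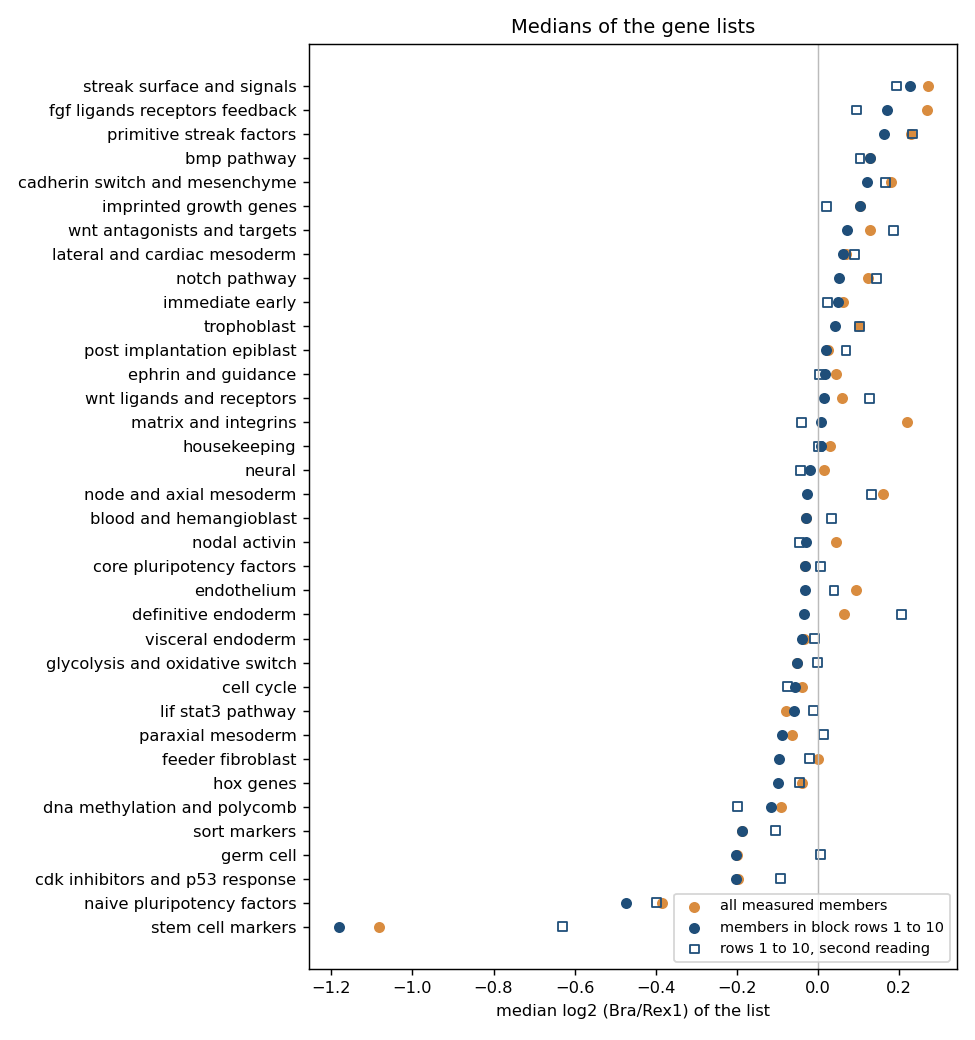
Median log2 ratio of Bra over Rex1 of each gene list: all measured members (orange circles), members in block rows 1 to 10 (blue circles) and the same members in the second reading (open squares). Stem cell markers and naive factors had the lowest medians, at -1.18 and -0.47 in rows 1 to 10, and the streak signals the highest, at 0.23.

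By rank, 1 of the 20 lowest genes above background in both populations lay in rows 11 and 12, and 18 were also called with print-tip loess. Pogz, a zinc finger gene, was that 1, with ratios of -2.51 and -2.25 and print-tip ratios of -2.89 and -2.28. The lower genes were not evenly placed either: rows 1 and 2 held 11 and 8 of all 55. Over all probes of rows 1 and 2 the medians of the second reading were -0.12 and -0.10. Jade1, a chromatin protein, had -1.85 and -1.62. Khdc3, a protein of the early embryo's maternal complex, had -2.15 and -1.55. Morc1, which silences transposons in the mouse germ line, had -1.82 and -1.28, and a probe for the L1Md-A1 repeat had -1.33 and -1.27. Atp1b1, a subunit of the sodium pump, had -1.48 and -1.45, and Ddc, an enzyme of amine synthesis, had -1.34 and -1.26. The L1Md-A1 probe matches repeats of many copies, so its signal cannot be placed at 1 locus.

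Of the 20 highest genes above background in both populations 11 lay in rows 11 and 12, and 7 were also called with print-tip loess. All 10 of the highest genes with Rex1 dim on that array lay in rows 11 and 12, and 8 were also called with print-tip loess. Among these was Mgst1, a microsomal glutathione transferase, for which Rex1 was below background on all 3 arrays and the estimated bound was at least 3.50-fold. Its spot was marked Bad on the array of Nkx2.5 and Rex1, so leaving out such spots ends the call. Erap1, a peptidase of antigen processing and likewise below background in Rex1, had an estimated bound of at least 3.91-fold. These bounds come from the loess of the whole array and carry the displacement of rows 11 and 12. With print-tip loess the readings were 1.94 and 2.02 for Mgst1 and 2.25 and 1.81 for Erap1, and they do not fix a size. Further genes of these 10, among them Sp5, Cask, Cpe, Gng10 and Slc30a5, also had a spot marked Bad on an array behind the readings. Leaving out such spots ends their calls too. Mogs, an enzyme of glycan trimming, had 1.39 and 1.26 and was not called with print-tip loess.

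The 24 higher genes in rows 1 to 10 comprised 18 with a name and 6 unnamed transcripts. Print-tip loess also called 18 of the 24, centring on the surrounding spots 18, and both 16. The named ones included Agpat3, Aldh3a1, B2m, Cdh2, Cer1, Dcxr, Fgf8, Lef1, Pex2, Rai14, Rgs17, Slit3, Tpbg, Ttc3 and Wls; this set was singled out after the values were seen. Aldh3a1, an aldehyde dehydrogenase, had net signals of 8576.5 in Bra and 2340.5 in Rex1 and ratios of 1.51 and 1.69. B2m, the light chain of class I histocompatibility molecules, had net signals of 10877 in Bra and 3579 in Rex1 and ratios of 1.15 and 1.39. All 3 of its probes passed 1 in the first reading, and 1 of them had a second reading of 0.37. Centred on the surrounding spots, B2m had 0.94 and 1.37 and Lef1 0.99 and 1.18, short of the rule.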

How the data were processed

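Per the labels' protocols, column-purified RNA of sorted cells was amplified and coupled to dyes, Bra to Cy5 and Rex1 to Cy3. The deposited scanner intensity and ratio values rest, per the file headers, on the median pixel signal and the background of both channels. The labels do not name the scanner software. The authors deposited a series table of log2 values that equal the log2 of the scanner ratio minus 1 constant (range of differences 1.00e-06).

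Foreground signals were rebuilt and put through normexp (offset 50), and loess was fitted within each array in limma 3.58.1 (R 4.3.3), with control spots left out. Tables were made in Python 3.11.15. The brightest probe stood for a gene; names came from RefSeq, with 8056 probes matched by accession, 5228 by symbol and 5063 by synonym, and 9924 unnamed. The call rule and the absence of tests are given above. The rule was also run on simulated ratios with independent errors of equal size and all genes above background. Those data held no displacement by slide position, so they could not show the dependence on position. Named genes were the markers, called, extreme and defining members of 36 lists, and the 20 highest and lowest called genes above background, with 10 dim ones; RIKEN, predicted and unnamed probes were passed over, and some called genes are not reported here. Members and lists were chosen with earlier results of these data known. Other settings covered background, offset, normalisation, filter, probe, route and fold. Leaving out block rows 11 and 12, local centring and leaving out spots marked Bad were added after seeing the data. The number of arrays limits the precision.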

Additional observations from a re-analysis of the deposited data

How the results depend on the processing

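The count of higher genes depended on the position on the slide as well as on the background, the second reading and the fold. Against 286 higher and 55 lower genes, leaving out block rows 11 and 12 gave 24 higher and 51 lower, print-tip loess 37 higher and 63 lower, and centring each array on the median of the surrounding 11 by 11 spots 63 higher and 50 lower. Without background subtraction no gene was called (0 and 0), since the ratios shrink when background is left in. Plain subtraction gave 185 higher and 34 lower, the authors' series table gave 132 higher and 30 lower, an offset of 200 gave 184 higher, and leaving out spots marked Bad gave 173 higher. Requiring both populations above background gave 42 higher. The third route as second reading gave 518 higher, the array alone 727 higher and 132 lower, a fold of 1.5 gave 820 and 311, and a fold of 3 gave 47 and 11. The other counts stayed within 1.5 times. Of 65 named genes, Hey2 turned to -0.10 with print-tip loess, and without background subtraction Hey2 turned to -0.19, Uncx to -0.14, Ptpro to -0.029, Gng10 to -0.0066 and Mettl27 to -0.0061; all 5 lie in rows 11 and 12. Under the other settings of background, offset, normalisation and probe none of the 65 changed sign in the first reading. Along the third route 285 of the 286 higher and all 55 lower genes kept their sign. That route shares the Nkx2.5/Bra array with the second reading, by which the genes were called. Its median in rows 11 and 12 was also displaced, to 0.45. The kept signs are therefore no independent support for the calls. No paired analysis was possible because each pair was hybridised once, and for the same reason no replicate could be left out. Rex1 was above background at 77.6% of probes and Bra at 92.2%, which limits the ratios of genes dim in Rex1.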

Other observations

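None of the 36 Hox genes, 22 lateral and cardiac mesoderm genes, 20 blood genes, 19 visceral endoderm genes, 14 trophoblast genes or 15 feeder fibroblast genes was called in either direction, where 1.15% of all genes were higher and 0.222% lower, so 0 calls is near that share for lists of this length. Their medians in the first reading were -0.04 for Hox genes, 0.07 for lateral and cardiac mesoderm, -0.03 for blood, -0.03 for visceral endoderm, 0.10 for trophoblast and 0.00 for feeder fibroblast genes. Among 31 cell cycle genes 0 were called, with medians of -0.04 and -0.05. Mybl2, the cell cycle factor called lower above, was counted in the naive list and not in this list. Of 22 genes of DNA methylation and Polycomb complexes 0 were called, although Dnmt3l, a cofactor of DNA methylation, had -1.43 and -0.61.

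Several called genes of patterning lie in rows 11 and 12 and were not called with print-tip loess. Shh, a ligand of the axial mesoderm, had ratios of 1.04 and 1.55, and print-tip ratios of 0.58 and 0.80. Uncx, a somite factor, passed 1 in the first reading, had 1.03 in the second, and had print-tip ratios of 0.20 and 0.19. Hey2, a Notch target, had 1.20 and 1.22, and print-tip ratios of -0.10 and 0.53.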
